A study of Mus musculus with 2 samples.

Results

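Swimming sperm depend on a small set of ion channels and pumps, several of which few other cells make. The CatSper channel, in the tail, lets calcium in when the sperm interior turns alkaline, and without it mouse sperm cannot hyperactivate and the males are sterile. Catsper1, Catsper2, Catsper3 and Catsper4 encode its pore-forming subunits and Catsperb an auxiliary subunit. Kcnu1 encodes SLO3, the alkaline-activated potassium channel of sperm. Hvcn1 encodes a voltage-gated proton channel, and Slc9a10, now called Slc9c1, the sperm-specific sodium/proton exchanger. Atp2b4 encodes a plasma membrane calcium pump and Atp1a4 the sodium pump subunit of the sperm tail. CREM is a CREB-related transcription factor that turns on many genes of haploid male germ cells and recognises the cAMP response element.

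These 10 genes were chosen by name, and the array annotation names probes for 9 of them. Atp1a4 had no probe of that name and was not analysed here. Catsper2, Catsper4, Kcnu1, Hvcn1 and Atp2b4 lay on array 1, and Catsper1, Catsper3, Catsperb and Slc9a10 on array 2. Of 17303 genes with a measured window on the 2 arrays, these were 9, with 207 probes, of which 192 passed the filters.

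Chromatin of germ cells from adult male C57BL/6 mice, fixed in 1% formaldehyde for 10 min at 37 °C, was precipitated with an antibody against CREM (sc-440), and with goat IgG as the negative control. The CREM precipitate carried the dye Cy5 and the IgG precipitate Cy3, and both were hybridised together to Agilent arrays that tile promoters. Germ cells of 5 testes were pooled, so all stages of germ cell are mixed, and strong binding in few cells cannot be told apart from weak binding in many. Each array was hybridised 1 time without a dye swap, and the arrays shared no measured probe. There are therefore no replicates and no test, and the dye and the antibody cannot be told apart. The number of arrays limits the precision.

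All ratios are log2 of CREM over IgG processed signal, centred on the array median. A window is a run of 3 probes whose starts follow each other by no more than 500 bp, its value is the median of the 3, and it belongs to the gene named for its middle probe. A window at 1 or more, which is 2-fold, was called. Where windows of a gene tied, the first along the chromosome is the 1 described and drawn. A window at -1 or less was counted as the IgG side, the background measured the same way. Errors given with probes are the scanner software's error of that spot's log ratio and leave out variation between experiments. The spread among repeated control spots had a median SD of 0.135 on array 1 and 0.0964 on array 2. The CREM channel was well above background at 96.3% of probes on array 1 and 95.5% on array 2, against 77.4% and 78.5% for the IgG channel. A probe dim in IgG has only a bound, computed against the lowest IgG signal that was well above background, 306 on array 1 and 288 on array 2.

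The sequences that carry the results are the array's own probes, shown as the array file gives them. Where probes could be matched to RefSeq promoters, 19463 of 19513 lay on the plus strand. Positions are those of mouse build mm9. The first 6 are the probes of the highest windows of Kcnu1 and Catsper1, the highest of the 9 genes before other settings are tried. The capitals in Catsper1 probe 2 mark TGACATCA, a near match to the full cAMP response element TGACGTCA.
Kcnu1 probe 1, chr8:26959941-26959991: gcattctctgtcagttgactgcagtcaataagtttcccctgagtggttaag
Kcnu1 probe 2, chr8:26960110-26960169: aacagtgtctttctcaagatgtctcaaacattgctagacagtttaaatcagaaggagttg
Kcnu1 probe 3, chr8:26960238-26960297: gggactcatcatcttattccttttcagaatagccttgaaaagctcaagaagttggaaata
Catsper1 probe 1, chr19:5335424-5335483: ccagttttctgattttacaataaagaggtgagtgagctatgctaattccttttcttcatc
Catsper1 probe 2, chr19:5335551-5335610: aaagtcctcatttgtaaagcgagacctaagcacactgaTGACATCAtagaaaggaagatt
Catsper1 probe 3, chr19:5335732-5335780: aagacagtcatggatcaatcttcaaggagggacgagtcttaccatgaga

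The next set shows the 2 probes at 1 or more that hold the core of the element, TGACG or CGTCA, in capitals, and the lone high probe of Hvcn1, which holds neither.
Catsper3, chr13:55886570-55886619: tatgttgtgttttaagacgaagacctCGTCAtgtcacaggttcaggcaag
Catsper4, chr4:133782770-133782825: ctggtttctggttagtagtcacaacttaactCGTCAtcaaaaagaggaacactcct
Hvcn1, chr5:122655943-122655996: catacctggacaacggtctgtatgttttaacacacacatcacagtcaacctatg

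The last set shows where the ratio changes side over a short distance at Catsper2. The first probe had a ratio of 1.29, the second -2.60 and the third, which the array names for the neighbouring gene Pdia3, -1.50. The RefSeq promoters of Catsper2 and Atp2b4 follow, from 250 bases before to 50 bases after the start, in build GRCm38.p6 and on the minus strand, with the core in capitals.
Catsper2, chr2:121239199-121239255: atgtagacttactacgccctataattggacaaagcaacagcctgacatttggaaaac
Catsper2, chr2:121239427-121239471: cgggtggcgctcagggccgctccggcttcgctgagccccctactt
Catsper2 and Pdia3, chr2:121239698-121239742: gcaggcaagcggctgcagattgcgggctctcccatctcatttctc
Catsper2 promoter, chr2:121413743-121414042: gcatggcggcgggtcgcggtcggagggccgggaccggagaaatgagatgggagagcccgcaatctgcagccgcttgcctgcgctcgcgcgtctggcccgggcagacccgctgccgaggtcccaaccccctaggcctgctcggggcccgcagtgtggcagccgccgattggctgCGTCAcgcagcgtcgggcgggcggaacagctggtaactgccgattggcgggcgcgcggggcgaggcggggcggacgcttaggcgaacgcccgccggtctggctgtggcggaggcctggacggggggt
Atp2b4 promoter, chr1:133753698-133753997: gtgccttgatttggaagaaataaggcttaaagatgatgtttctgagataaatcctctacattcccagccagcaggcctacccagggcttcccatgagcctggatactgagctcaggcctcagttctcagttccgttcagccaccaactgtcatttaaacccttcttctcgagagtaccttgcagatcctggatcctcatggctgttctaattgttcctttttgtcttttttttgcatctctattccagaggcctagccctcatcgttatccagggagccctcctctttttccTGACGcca

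CREM precipitate exceeded IgG 2-fold in a window at Kcnu1, Catsper1, Catsper3 and Atp2b4, 4 of the 9 genes. Over all genes of the arrays 34.5% were called this way, and 34.1% of the 13458 genes with a like number of windows (3 to 28), so the share among the 9 is not far from the background. Only Catsper2 had a window on the IgG side, 1 of 9, against 33.7% of all genes and 29.7% of genes with a like number of windows. The value of that window, -1.50, is that of a probe named for Pdia3. Catsperb, Hvcn1, Catsper4 and Slc9a10 were on neither side. With 9 genes each of these shares shifts a lot with a single gene, and the difference was not tested.

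By window the CREM side was higher and the IgG side lower than over all genes. Of 133 windows at the 9 genes, 13 were at 1 or more, which is 9.77%, against 5.99% of all windows. A single window was at -1 or less, which is 0.752%, against 4.56% of all windows. By probe, 31 of 192 were at 1 or more (16.1%, against 9.45% of all probes used) and 9 at -1 or less (4.69%, against 6.52%). Neighbouring windows share probes and DNA fragments, and Kcnu1, Catsper1 and Catsper3 together hold most of the windows at 1 or more, with 5, 3 and 4 windows. The median highest window of the 9 genes was 0.95, against 0.77 over all genes. Their median lowest window was -0.34, against -0.76 over all genes.

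**Figure D1:**
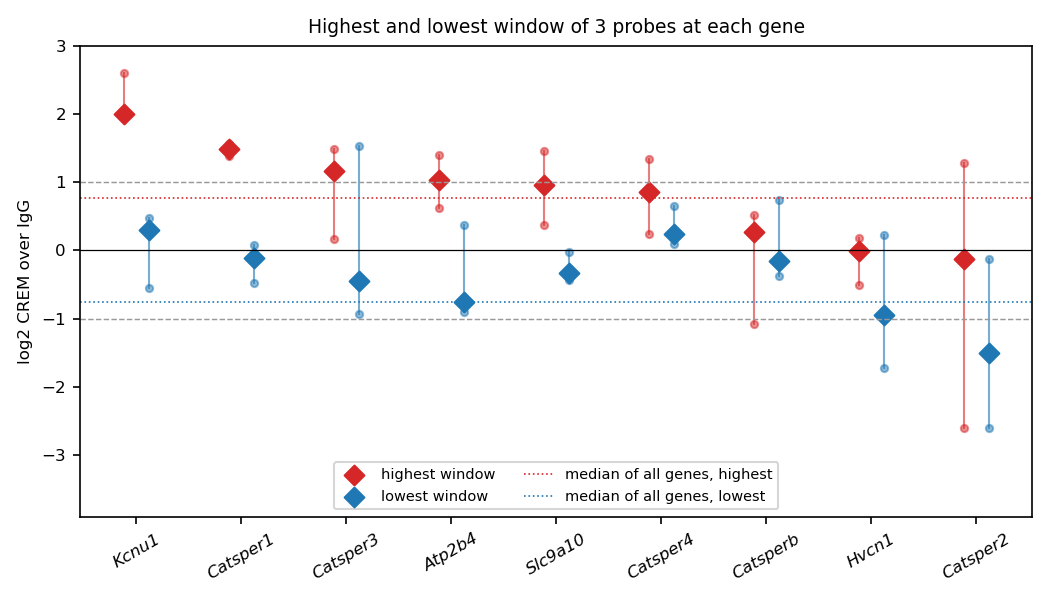
Highest window (red) and lowest window (blue) of each gene as a diamond, with its 3 probes as dots on a line, on a log2 scale of CREM over IgG. Dashed lines mark 1 and -1, and dotted lines the medians of all genes, 0.77 for the highest window and -0.76 for the lowest. Kcnu1 and Catsper1 sit highest with narrow probe ranges, though each has a tied window, not drawn, with a wider range. Only Catsper2 has a window below -1, though single probes of Hvcn1 and Catsperb also lie there.

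Among the pore subunits of CatSper, Catsper1 had an enrichment that was bright in both channels. Its highest window was at 1.49 (chr19:5335424-5335780), from probes of 1.37, 1.56 and 1.49 with errors of 0.25 each. Neither channel was dim at these 3 probes, with CREM signals of 2686, 7827 and 7879, against IgG signals of 1022, 2616 and 2769. Of the genes on array 2, 84.3% had a lower highest window. Only 28.5% of all called genes of both arrays had a highest window with 3 probes this well measured.

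The enrichment at Catsper1 was not confined to that window. Of its 29 probes used, 22 were above 0 and 9 at 1 or more, with 14 in a row above 0 whose starts followed each other by up to 500 bp. A second group of higher probes lay about 2 kb further along, with ratios of 1.12 at 5337401 and 1.04 at 5337802. The probe of highest ratio, 1.95 at 5330402, was dim in IgG (signal 60.3) and had an error of 0.77. No IgG-side probe was found at Catsper1, where the lowest probe was -0.48 and the lowest window -0.12.

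Catsper3 was called at 1.17 (chr13:55887370-55887805) from probes of 0.16, 1.48 and 1.17. Its CREM signals were 5513, 9283 and 869, against IgG signals of 4857, 3273 and 382, all well above background. The next window (chr13:55887522-55888002) has the same median, from probes of 1.48, 1.17 and 1.02, the last dim in IgG. The 3 probes of the first window disagree by far more than their errors of 0.21, 0.25 and 0.28. The lowest of them sits at the edge of the enriched stretch.

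That stretch is long but low. It runs over 16 consecutive probes above 0, 20 of 24 probes used at Catsper3 are above 0, and most of them lie between 0.2 and 0.6. The middle of the highest window lay 1605.5 bp downstream of the RefSeq start at 55885940, and that of the tied window 1837.5 bp. At the start itself the values were mixed. A probe centred at -62 bp, which is upstream, had 1.52, dim in IgG and with an error of 0.65, and it lay between probes of -0.44 and -0.94, each with an error of 0.22.

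Catsper4 missed the threshold at 0.85 (chr4:133782770-133783279), from probes of 1.34, 0.24 and 0.85 with errors of 0.32, 0.22 and 0.23. The CREM signals were 708, 1512 and 2272, against IgG signals of 274, 1256 and 1238. The probe at 1.34 was dim in IgG, which bounds its ratio to at least 2.28-fold, and it is the probe with the core of the element shown above. The window lay just downstream of the start, its middle probe 257 bp from it. Windows with middle probes at 43 and -97.5 bp from the start had the same median. Of 10 probes, 8 were above 0, and the lowest window of Catsper4 was at 0.24. Both probes below 0 lay further downstream, and that at 133782483 had -1.05, bright in both channels (CREM 971, IgG 1983).

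Catsper2 was the exception among the pore subunits. Its lowest window was at -1.50 (chr2:121239313-121239742), from probes of -0.12, -2.60 and -1.50. The last, which gives the median, is named for Pdia3, and Catsper2 had no other window at -1 or less. The CREM signals were 9483, 653 and 785, against IgG signals of 10152, 3901 and 2183, so all were bright. The probe at -2.60 lay 79 bp downstream of the start at 121239528.

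Just beyond it the ratio turned. Going downstream, the Catsper2 probes had -0.12 at 193 bp from the start, 1.29 at 301 bp, 1.08 at 1060 bp and 0.67 at 1464 bp. The other 6, from 2660 bp on, were all below 0, and that at 121236391 had -1.56, or -1.49 with the GC trend removed, and was bright in both channels (CREM 536, IgG 1554). Each of the 3 probes above 0 was bright in both channels, but 760 bp separate the first from the second, so they formed no window of their own and the highest window of Catsper2 was -0.12. With starts allowed up to 1000 bp apart, its highest window was 1.08. With the neighbouring names counted it was 1.14, the value of a probe named for Pdia3.

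The auxiliary subunit gene Catsperb was low and thinly measured. Only 3 windows could be formed from its 16 probes used, and the highest was at 0.27 (chr12:102643412-102643853), from probes of -1.08, 0.52 and 0.27. Both of the higher probes were dim in IgG, with CREM signals of 354 and 260, against IgG signals of 245 and 214. No probe of Catsperb reached 1, and its highest was 0.73 with an error of 0.62. On the other side, 2 of the 16 were at -1 or less and bright in both channels, -1.08 in that window and -1.05 at 102639601 (CREM 865, IgG 1768).

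The potassium channel gene Kcnu1 had the highest measured ratio of the 9 genes in the main setting. Its highest window was at 2.00 (chr8:26959941-26960297), from probes of 2.00, 2.60 and 2.00 with errors of 0.75, 0.37 and 0.36. Of the genes on array 1, 95.2% had a lower highest window. However, none of the 3 probes was well above background in IgG. Their CREM signals were 251, 1118 and 744, against IgG signals of 61.7, 181 and 183. Taken as bounds, the second probe was at least 3.60-fold and the third at least 2.40-fold higher in CREM, and the first has no bound above 1.

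At Kcnu1 15 of 16 probes were above 0 and 7 at 1 or more, with 8 in a row above 0 whose starts followed each other by up to 500 bp. Of those 7, 4 were dim in IgG, the 3 of the window and a probe of 1.37 at 26962563. The other 3 were bright in both channels, with 1.11 at 26959302 (CREM 7034, IgG 3205), 1.15 at 26959628 (CREM 2701, IgG 1197) and 1.38 at 26960364 (CREM 3214, IgG 1217). These 3 flank the window on both sides. With only probes well above background in both channels kept, the highest window of Kcnu1 was 1.11, still called. It came from the probes at 26959302 to 26959628 (1.11, 0.59 and 1.15), to one side of the window above, which that setting does not measure. The lowest window was at 0.29, the highest such value among the 9 genes.

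**Figure D2:**
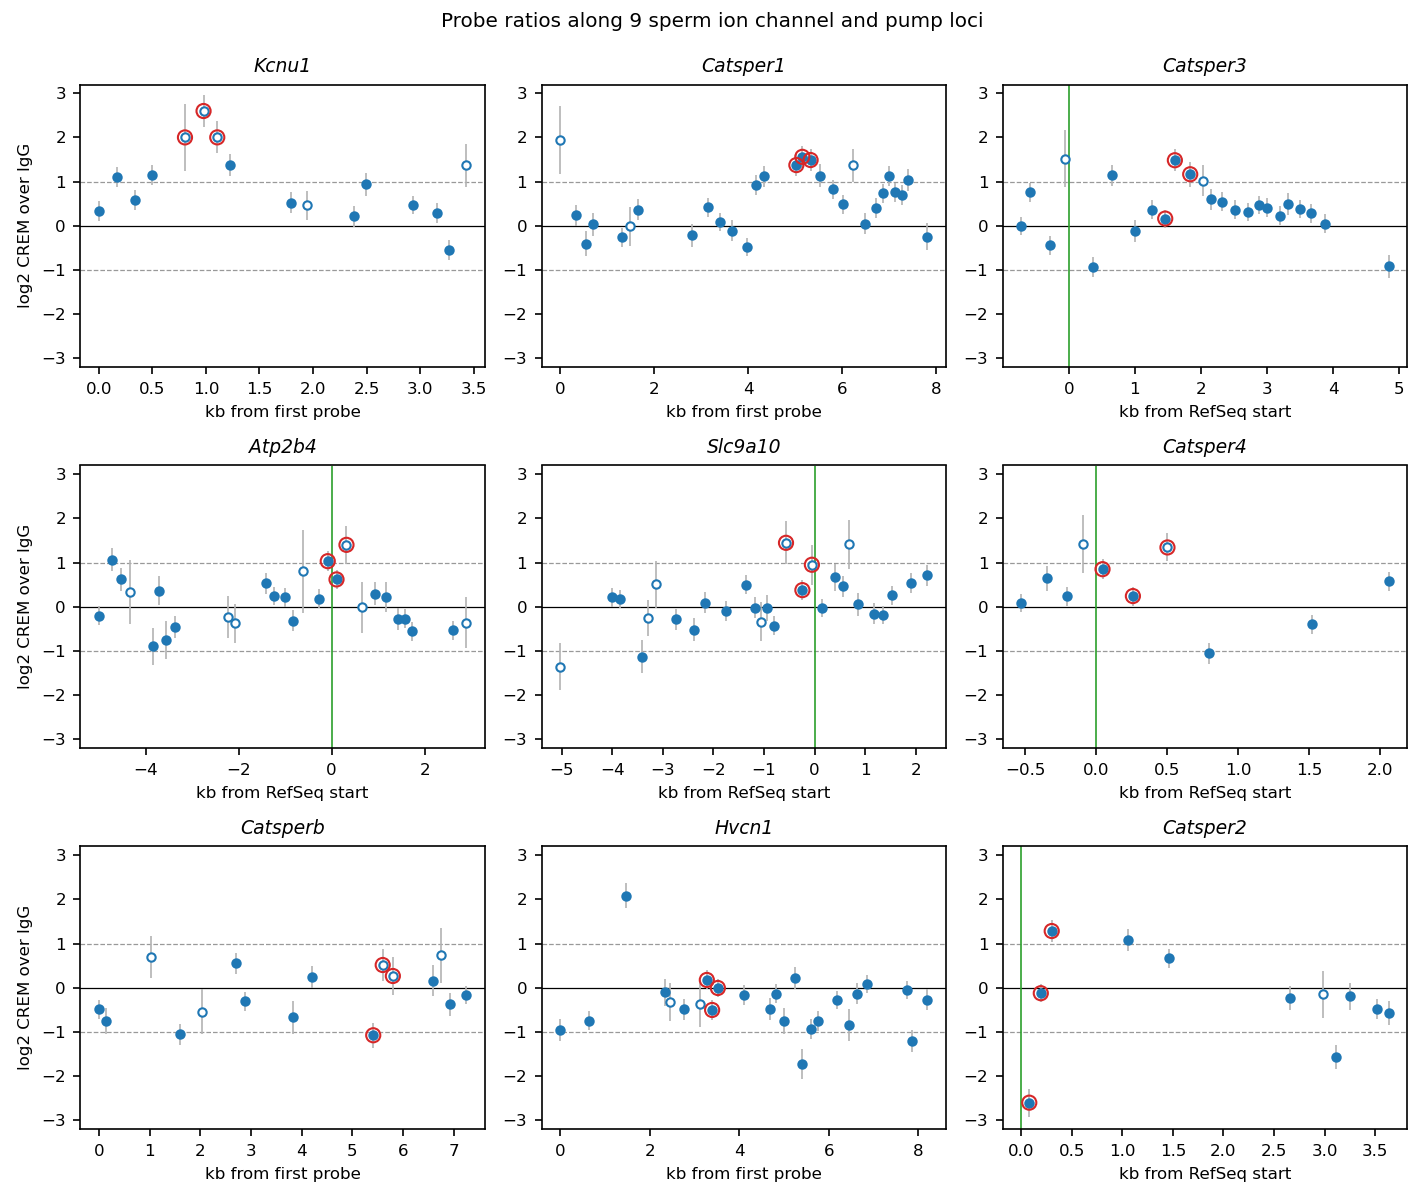
Ratio of every probe used along each gene, as log2 of CREM over IgG with the scanner error as a grey bar, against distance in kb from the RefSeq start where probes matched it (green line) and otherwise from the lowest probe. Open circles are probes not well above background in both channels, red rings mark the highest window, and a distant group of Slc9a10 probes about 70 kb downstream is not drawn. The long stretches above 0 at Kcnu1, Catsper1 and Catsper3 contrast with the single high probe of Hvcn1 and the change of side at Catsper2.

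The proton channel gene Hvcn1 lay mostly below 0. Its highest window was at -0.0045 (chr5:122657746-122658047), from probes of 0.18, -0.50 and -0.0045, and its lowest at -0.94, from probes of 0.22, -1.72 and -0.94. Only 4 of 25 probes were above 0, and the median probe was -0.32. A single probe broke this pattern. At 122655943 the ratio was 2.09 with an error of 0.28, bright in both channels (CREM 14819, IgG 3432).

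That lone probe of Hvcn1 had no neighbour within 500 bp. The probes on either side lay 837 bp before it at -0.75 and 878 bp after it at -0.10, so no window held it, and the DNA between them was not measured. It was singled out after its value was seen.

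The exchanger gene Slc9a10 came close to the threshold at its start. Its highest window was at 0.95 (chr16:45534785-45535356), from probes of 1.45, 0.38 and 0.95 with errors of 0.49, 0.22 and 0.45. The middle probe was centred at -240.5 bp, upstream of the start at 45535379. The CREM signals were 365, 1355 and 338, against IgG signals of 132, 1029 and 172. Only the middle probe was bright in IgG, and the bounds for the others were at least 1.25-fold and at least 1.16-fold. All 34 probes used, in a group at the start and a group about 70 kb downstream, ran between -1.36 and 1.45, with 18 above 0.

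Of the pump genes, Atp2b4 was called at the edge of the threshold. Its highest window was at 1.03 (chr1:135649974-135650431), from probes of 1.40, 0.62 and 1.03 with errors of 0.43, 0.22 and 0.23. The CREM signals were 441, 2621 and 3359, against IgG signals of 164, 1677 and 1614. The window spans the RefSeq start at 135650324, and its probe at 1.03 lies inside the promoter printed above. The probe at 1.40 was dim in IgG, with a bound of at least 1.42-fold. The lowest window of Atp2b4 was at -0.75, centred at -3699.5 bp from the start, so upstream of it.

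In order of the highest window, the 9 genes ran Kcnu1, Catsper1, Catsper3, Atp2b4, Slc9a10, Catsper4, Catsperb, Hvcn1 and Catsper2. In the windows described, only the step between Kcnu1 and Catsper1 had probe ranges that did not overlap. There the difference was 0.51, with a combined scanner error of 0.44. The next Kcnu1 window, with probes of 2.60, 2.00 and 1.38, has the same median, and its range overlaps that of Catsper1. Because the 3 probes of the Kcnu1 window described are dim in IgG, their bounds do not place Kcnu1 above Catsper1. The order turned with only bright probes (1.11 for Kcnu1 and 1.49 for Catsper1), with normexp background correction (0.77 and 1.92), with loess (1.25 and 1.40) and with the authors' value table (1.25 and 1.40). All other neighbours in the order had overlapping probe ranges, so the order of the 9 is not resolved by these probes. Kcnu1 and Catsper1 also lay on different arrays.

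Probes named for other genes lay within 1000 bp of 4 of the 9. Next to Catsper2, 5 probes of Pdia3, which encodes a disulfide isomerase, had a median of -1.04 and ran from -2.36 to 1.14. Next to Catsper4, 4 probes of Cnksr1, a scaffold gene, had a median of 0.29. Next to Kcnu1, 1 probe of Ash2l, which encodes a subunit of histone methyltransferases, had 0.86. Next to Slc9a10, 2 probes of Gcsam had a median of -0.54. Where 2 genes lie this close, the enriched DNA cannot be assigned to one of them.

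The start could be placed for 5 of the genes, Catsper2, Catsper3, Catsper4, Slc9a10 and Atp2b4, by matching probes to RefSeq promoters base for base. Within 200 bp of these starts, 10 probes had a median of 0.74, with 3 at 1 or more and 2 at -1 or less. Over all genes, probes at that distance had a median of -0.37, with 10.0% at 1 or more and 26.4% at -1 or less. All 5 genes contribute to these 10 probes, and both of those at -1 or less lie at the start of Catsper2, the printed ones at -2.60 and, named for Pdia3, at -1.50. Of the 3 at 1 or more, those of Catsper3 at 1.52 and Catsper4 at 1.42 were dim in IgG and have no bound above 1. Between 200 and 500 bp downstream, 2 of 5 probes were at 1 or more, against 12.7% over all genes. Between 200 and 500 bp upstream it was 0 of 6, against 19.4% over all genes, and 1 of the 6, named for Pdia3, was at -1 or less, against 11.1%. Between 500 and 1000 bp, 3 of 13 upstream and 3 of 8 downstream were at 1 or more, against 18.7% and 16.25% over all genes. These counts take every probe at that distance, whatever gene it names. Of the 3 upstream, only that of Slc9a10 at 1.45, dim in IgG, is named for a gene of the 9. Of the 3 downstream, Catsper4 at 1.34 and Slc9a10 at 1.41 were dim in IgG, and Catsper3 at 1.14 was bright in both channels.

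Base composition moved with these values. Over all probes the median ratio was 0.13 at a GC content of 35 to 40%, -0.28 at 50 to 55% and -1.08 at 60% and more. In that highest class 54.0% of all probes were at -1 or less. The median GC content of the probes of the 9 genes was 40.0%, against 40.4% over all probes. The highest class was thinner among them, with 2 of 192 probes, against 24285 of the 228275 and 226404 probes of both arrays together. The IgG-side shares given above were not matched for GC content. Catsper2 was apart from the others, with 65.2% GC over its lowest window.

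The same holds for the promoters themselves. RefSeq promoters were given for Atp2b4, Atp1a4, Catsper2, Catsper4, Catsperb, Catsper3 and Slc9a10. Their median GC content was 47.7% with 3 CpG, against 52.7% and 7 CpG over all 32851 promoters. The Catsper2 promoter alone had 74.7% GC and 41 CpG. With the median ratio of each GC class of probes subtracted, the lowest window of Catsper2 was -0.80 in place of -1.50. No gene of the 9 stayed on the IgG side, and over all genes that share fell as well, from 33.7% to 12.6%. Kcnu1 then had 1.97, Catsper1 1.42 and Catsper3 1.10. The 1.10 belongs to another window of Catsper3, and the window described above had 1.03. That other window, chr13:55885853-55886619, had discordant probes of 1.57, -1.07 and 1.10, the first dim in IgG with an error of 0.65. It also counts among the Catsper3 windows at 1 or more in the main setting, where its median was 1.14. With the GC trend removed Atp2b4 lost its call at 0.9994, which left 3 of the 9 genes called, against 30.7% of all genes. The highest window of Catsper2 was 0.78 in place of -0.12. The part of base composition in the Catsper2 values was not tested beyond this.

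**Figure D3:**
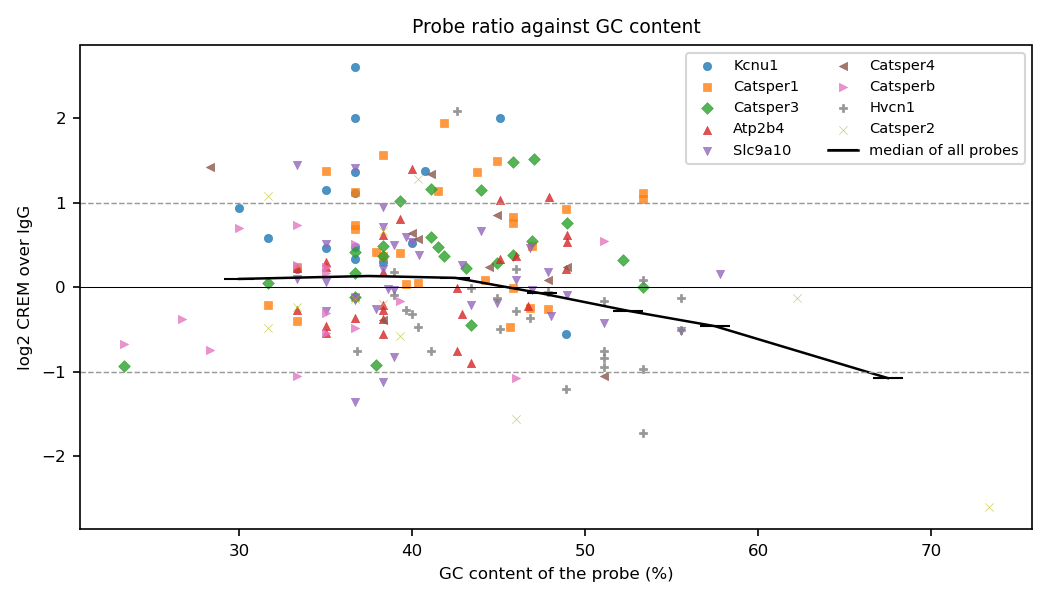
Ratio of each probe of the 9 genes, as log2 of CREM over IgG, against its GC content in percent, with the median of all probes in GC classes as a black line (0.13 at 35 to 40% and -1.08 at 60% and more). Most probes of the 9 genes lie between 30 and 50% GC, where that line is nearly flat, and the lowest point, at 73.3% GC, is the Catsper2 probe near its start.

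Dim IgG signal was found in 36 of 192 probes (18.8%, against 18.9% of all probes). Of the 31 probes at 1 or more, 13 were dim in IgG, against 58.2% of all probes at 1 or more on the arrays. Their part in the calls was read from the bounds given above and from the setting without dim probes.

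The full cAMP response element, TGACGTCA, was in no probe and no promoter of these genes. It was in 0.0631% of probes on array 1, 0.0508% on array 2 and 1.79% of RefSeq promoters. The core, TGACG or CGTCA on either strand and also part of the full element, was in 4 probes. These were the probe of Catsper4 at 1.34, those of Catsper3 at 1.14 and 0.41, and a probe of Catsper1 at 0.92. Over all probes 2.06% and 2.11% on arrays 1 and 2 held the core, and 11.6% of probes with it were at 1 or more, against 9.40% of those without.

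In promoters the core was in 2 of 7, against 20.8% of all. In Catsper2 it lay 77 bases before the start, and in Atp2b4 42 bases after it. TATAAA, on either strand, was in none of the 7 promoters, against 13.6% of all promoters, and in 10 of the 192 probes, against 4.11% and 4.17% of all probes on arrays 1 and 2.

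TGACATCA or its reverse TGATGTCA was searched for after the probe sequences had been read. It was in 2 probes of the set, the middle probe of the highest Catsper1 window, at 1.56, and a probe of Slc9a10 at 0.72 (chr16:45537582-45537641), shown here with the match in capitals.
Slc9a10, chr16:45537582-45537641: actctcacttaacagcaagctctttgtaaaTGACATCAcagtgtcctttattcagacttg
Over all probes 0.324% held it, and 17.6% of these were at 1 or more, against 9.42% of those without. A match of letters is a description and shows no binding.

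Other genes of sperm ion physiology were read out by lists. Among 16 further genes of the CatSper complex and its partners, 7 were measured, 3 were called (42.9%, against 34.5% of all genes) and 0 had an IgG-side window (against 33.7%), with a median highest window of 0.99. Lrrc52, whose protein is the auxiliary subunit of the SLO3 channel that Kcnu1 encodes, was called at 1.10. Pkdrej, a polycystin-like receptor of sperm, was at 0.99, and Efcab9, a calcium sensor of CatSper, at 0.58. These 3 had all probes of the window well above background in both channels.

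A list of 20 genes of cAMP signalling and of proton and bicarbonate handling also held genes of sperm glycolysis. Of the 20, 17 were measured and 11 called (64.7%, against 34.5% of all genes). An IgG-side window was found in 7 of the 17 (41.2%, against 33.7% of all genes). The median was 1.13. With 3 well measured probes, Slc4a2, an anion exchanger, was at 1.92, Prkaca, the catalytic subunit of protein kinase A, at 1.76, Akap3, an anchoring protein of the sperm tail, at 1.45, and Slc26a6, another anion exchanger, at 0.53.

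For calcium stores and calcium entry, 23 of 26 genes were measured, 10 were called (43.5%, against 34.5% of all genes) and 14 had an IgG-side window (60.9%, against 33.7%), with a median of 0.81. Plcz1, the sperm phospholipase that starts calcium oscillations in the egg, was at 1.35, Orai1, a store-operated channel, at 1.24, and Atp2a2, a calcium pump of the endoplasmic reticulum, at 0.25.

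Of 39 further genes from the families of these channels, exchangers and pumps, most of them known from other tissues, 34 were measured, 7 were called (20.6%, against 34.5% of all genes) and 13 had an IgG-side window (38.2%, against 33.7%), with a median of 0.66. Atp2b1, a plasma membrane calcium pump related to Atp2b4, was at 1.84. Slc9a8 was at 1.64 and Slc9a4 at 1.05, both sodium/proton exchangers related to Slc9a10. The lowest with 3 well measured probes was Tpte, at 0.23. The lists differ in size and in GC content, and differences between them were not tested.

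Marker genes of testis cell types do not tell which cells were in the pool, since the array measures precipitated DNA and not expression. Of 6 round spermatid genes 3 were called, among them Tnp2, a transition protein, at 1.51, while the protamine genes Prm2 and Prm1 were at 0.66 and 0.37. Of 4 measured pachytene spermatocyte genes 2 were called, with Piwil1 at 1.44 and Sycp1 at 0.62. Of 4 spermatogonium genes 1 was called, with Kit at 0.72 and Gfra1 at 0.65. Of 6 Sertoli genes 1 was called, with Cldn11 at 0.63, Amh at 0.32 and Gata4 at 0.19, and of 4 measured Leydig genes 1 was called, with Insl3 at 1.09 and Star at 0.23. These counts stand against 34.5% of all genes called. An IgG-side window was found in 2 of the 6 round spermatid genes, 2 of 4 pachytene, 2 of 4 spermatogonium, 3 of 6 Sertoli and 1 of 4 Leydig genes, against 33.7% of all genes. The median highest window was 0.98 for round spermatid genes, 1.14 for pachytene, 0.69 for spermatogonium, 0.48 for Sertoli and 0.40 for Leydig genes.

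How firmly the calls stood differed by gene. The highest window was sought anew in each setting, so it can lie elsewhere in the gene. That of Catsper3 did with normexp background correction and with the GC trend removed. The 12 other settings are not 12 separate checks. The authors' value table is itself a within-array loess, and leaving out the centring only shifts each array by 0.02. Catsper1 was at 1 or more in 12 of 12 other settings of the calculation, between 1.37 and 1.92. Kcnu1 was in 11 of 12, between 0.77 with normexp background correction and 2.30 with windows of 2 probes, and Catsper3 in 10 of 12, between 0.76 and 1.33. Catsper3 fell short only with loess and with the authors' value table, at 0.76 in each. Atp2b4 was in 6 of 12, between 0.51 and 1.06. Slc9a10, Hvcn1 and Catsperb reached 1 in none, Catsper4 in 1, at 1.14 with windows of 2 probes, and Catsper2 in 2, at 1.08 where starts up to 1000 bp apart joined its separated probes and at 1.14 where windows of neighbouring names were counted.

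**Figure D4:**
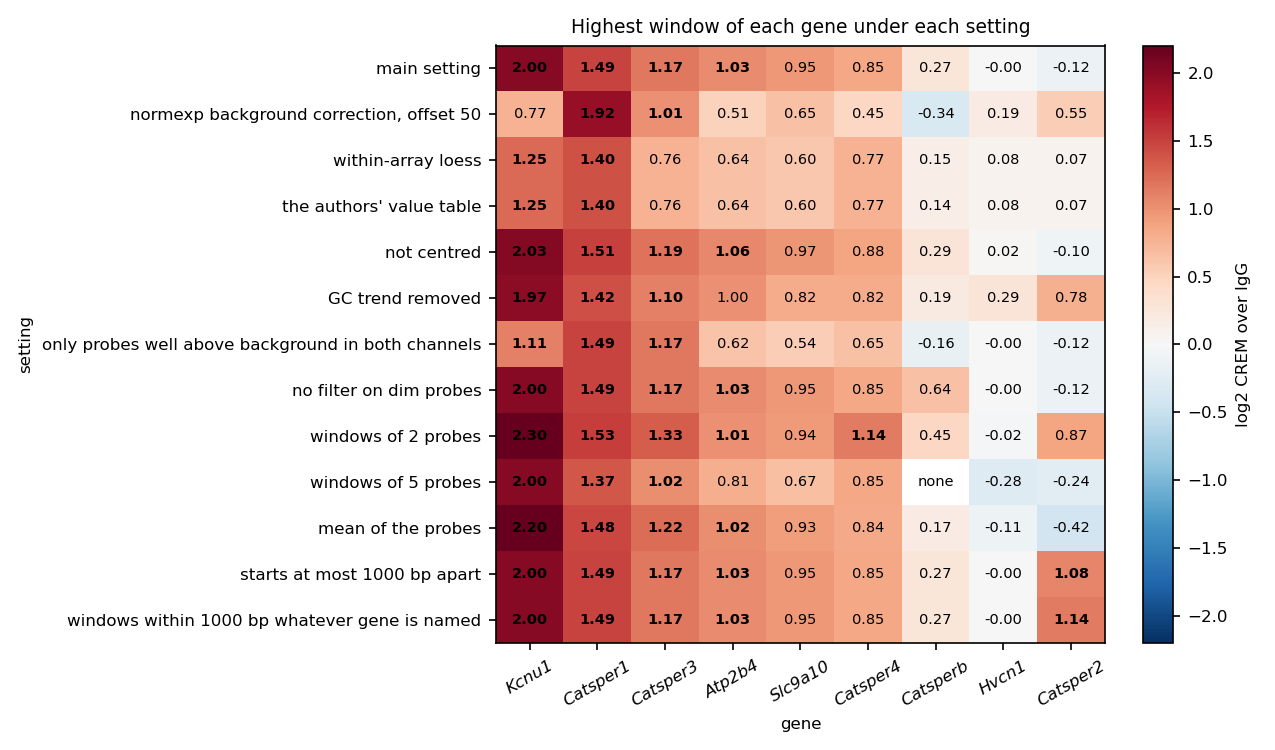
Highest window of each gene, as log2 of CREM over IgG by colour and number, under the main setting (top row) and 12 others, with values at 1 or more in bold. Catsper1 stays in bold in every row, Kcnu1 in all but the row with normexp background correction, and Atp2b4 in about as many rows as not.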

How the data were processed

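Promoter arrays with 2 channels were used, 1 hybridisation of CREM (Cy5) against IgG (Cy3) on each of 2 arrays. Per the file headers, Agilent Feature Extraction 10.7.1.1 read them and positions are mm9. The deposited scanner files give spot intensity, as scanned and as background-subtracted, dye-normalised processed signals. Their LogRatio and its error are log10, per the file headers, and the error was converted to log2. The deposited per-spot p-value of the scanner software was not used as a test. Values in the authors' deposited table are log2 ratios, and recomputing them with limma's within-array loess on background-subtracted signals matched within 5e-08 on array 1 and 4.93e-08 on array 2, so direction and scale are known, with medians of -0.000965 and -0.00103. R 2.10.1 and limma are named in the submitters' processing notes.

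Here, log2 of processed CREM over IgG was centred on the array median (shifts of 0.02), without loess, since many probes may carry signal. Controls, 46 and 9 outlier spots, 301 and 417 probes without a position and 8595 and 10382 probes dim in both channels were left out, leaving 228275 and 226404 probes on arrays 1 and 2. Saturated spots, 1 on each, stayed in. Python 3.11.15, pandas 2.3.3, numpy 2.4.6, R 4.3.3 and limma 3.58.1 were used. The text names all 10 genes, their neighbours within 1000 bp and, of each list, the 3 highest genes and the lowest 1 among those with 3 probes well above background in both channels, except 1 gene that is not reported here. Starts came from exact matches of probes to RefSeq promoters (GRCm38.p6, 15275 of 32851 matched), with no conversion of coordinates. A genome of build mm9 was not used here, and probes are not assigned to exons or introns. Alternatives covered the ratio, centring, GC content, filters, windows, thresholds and gene assignment. The window code was tested on simulated data. The genes, lists and settings were chosen with earlier results of these data known.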

Additional observations from a re-analysis of the deposited data

How the results depend on the processing

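The number of the 9 genes called was 4, and it fell to 2 with normexp background correction, 2 with within-array loess, 2 with the authors' value table and 1 at a threshold of 1.5. The shares of all genes called fell as well, to 16.2%, 17.1%, 17.1% and 14.1%. With normexp the called genes were Catsper1 and Catsper3, the latter through a window other than the 1 described above. With loess they were Catsper1 and Kcnu1, and at 1.5 Kcnu1 alone, Catsper1 lying just below at 1.49. The number with an IgG-side window was 1, and became 0 with normexp, 0 with the GC trend removed and 0 at a threshold of 1.5, but 3 without a filter on dim probes, 3 at a threshold of 0.58, 2 with windows of 2 probes and 2 with the mean of the probes. Over all genes the share was 33.7%, and it became 3.7% with normexp, 12.6% with the GC trend removed and 13.6% at 1.5. Without the filter on dim probes it was 38.5%, at 0.58 64.9%, with windows of 2 probes 46.3% and with the mean 33.0%. The median highest window of 0.95 moved to 0.55 with normexp, 0.64 with loess, 0.64 with the authors' value table and 0.62 with only probes well above background in both channels, beside medians over all genes of 0.49, 0.53, 0.53 and 0.47. The cause of these moves was not tested. Among the single-gene values under the other settings, 83 moved by less than the scanner error and 24 by more, and 0 called values changed sign. Catsperb had no window of 5 probes. No paired analysis was possible because each array is 1 hybridisation and the arrays share no probes. Dim IgG signal limits Kcnu1, Slc9a10 and Catsperb most, where the ratio is a bound.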
